A study of Mus musculus with 12 samples.

Results

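Transcripts of 10 genes of epidermal growth factor (EGF) receptor signaling were measured in the kidneys of vehicle- and SK-124-treated mice: the ligand genes Egf, Hbegf, Areg and Ereg, the receptor gene Egfr, and the feedback genes Errfi1, Spry1, Spry2, Spry4 and Spred1. They were chosen by name, with earlier results of these data known. All 10 were found among the 55401 gene identifiers in the tables of the 12 mice. Whole-kidney RNA was sequenced from 6 male C57BL6 mice given vehicle and 6 given SK-124, aged 8 weeks, with 1 library per mouse. SK-124 is a selective inhibitor of the salt-inducible kinases SIK2 and SIK3, and was injected intraperitoneally at 40 mg/kg. The vehicle was 15% 2-hydroxypropyl-beta-cyclodextrin, and the time between injection and collection for these libraries is not given in the sources used here. The labels name no transgene or deletion in either group. The comparison asks which of these transcripts differed in the kidney after SIK inhibition.

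EGF family ligands are made as membrane-anchored precursors and are released by metalloproteases. They bind EGFR and the related ErbB receptors, which dimerize and signal through RAS, RAF, MEK and ERK. Cells limit this signal with proteins that the signal itself can induce: ERRFI1 (also called MIG6) binds the kinase domain of EGFR and inhibits it, and Sprouty and SPRED proteins dampen the step from receptor to ERK. In the kidney, Egf is made mainly by the thick ascending limb and the distal convoluted tubule. Salt-inducible kinases hold back the coactivators of CREB, a transcription factor that binds cAMP response elements in promoters.

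Of the 8 genes tested, Hbegf, Errfi1 and Egfr were higher with SK-124, Spry1 and Spry2 were lower, and Egf, Spry4 and Spred1 did not pass the test. Hbegf and Errfi1 had the largest changes, 2.65-fold and 2.51-fold. Egf, the ligand transcript with the highest level, had a group difference smaller than its spread. Areg was at the limit of detection and Ereg had no count in any mouse.

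The promoter windows of Errfi1 and Areg are printed here, because among the genes examined these alone held a full cAMP response element, and in Errfi1 at only 1 of its starts. The windows are the 250 bases upstream of each start site in RefSeq (assembly GRCm38.p6), on the strand of the gene. The search covered TGACGTCA (the full element), TGACG (its shorter form, which also lies inside the full one) and TGANTCA (an AP-1 element), on both strands. Windows were at hand for 7 of the 10 genes, 9 windows in all, and were not at hand for Hbegf, Ereg and Spry4. Of the 9 windows, 7 held none of the 3 motifs. Among all 32851 promoter windows of the same length, 1.55% held TGACGTCA, 17.8% held TGACG and 6.75% held TGANTCA. Errfi1 had 2 annotated starts. The first window, chr4:150853546-150853795 on the plus strand, lies upstream of the GENCODE gene and held none of the motifs. The second, chr4:150854820-150855069 on the plus strand, lies inside the annotated span of the gene and held TGACGTCA with its first base 51 bases upstream of the start. The Areg window, chr5:91139349-91139598 on the plus strand, held TGACGTCA 61 bases upstream of the start and 3 matches to TGACG, counting those inside the full element. Capitals mark TGACGTCA. A match is a match of letters, and binding was not measured here.
Errfi1, first start: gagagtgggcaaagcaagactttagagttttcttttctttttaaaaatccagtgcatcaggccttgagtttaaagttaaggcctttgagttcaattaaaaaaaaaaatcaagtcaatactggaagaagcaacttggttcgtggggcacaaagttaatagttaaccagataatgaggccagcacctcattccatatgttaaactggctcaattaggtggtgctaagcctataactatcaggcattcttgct
Errfi1, second start: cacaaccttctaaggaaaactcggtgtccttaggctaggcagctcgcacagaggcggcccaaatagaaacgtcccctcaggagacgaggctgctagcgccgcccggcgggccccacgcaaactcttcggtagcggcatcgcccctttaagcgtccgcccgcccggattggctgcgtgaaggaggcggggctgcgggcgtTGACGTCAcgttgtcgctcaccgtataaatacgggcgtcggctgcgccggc
Areg: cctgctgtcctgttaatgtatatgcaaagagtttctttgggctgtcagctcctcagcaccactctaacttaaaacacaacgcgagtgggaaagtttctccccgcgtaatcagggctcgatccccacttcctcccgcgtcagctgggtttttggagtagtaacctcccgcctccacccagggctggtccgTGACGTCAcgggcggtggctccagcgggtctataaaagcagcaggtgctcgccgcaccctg

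The library totals of RSEM's expected counts (reads assigned to genes, shared out where a read fits several) ran from 19350134 to 19771802 with vehicle and from 19244227 to 19530313 with SK-124. Levels are given as CPM, counts scaled to library size after TMM normalization, and comparisons between genes as TPM, which is scaled to transcript length as well. The test was edgeR's quasi-likelihood test, and FDR is the Benjamini-Hochberg adjusted p over all 14159 genes that passed the expression filter, with a threshold of 0.05. Of these genes, 24.4% passed the test (10.8% higher and 13.5% lower with SK-124), so a call by itself sets no gene apart. In 6.32% of them every SK-124-treated mouse lay above every vehicle-treated mouse, and in 6.65% every one lay below. Fewer cells of a type and less RNA per cell cannot be told apart in whole kidney.

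Some mice stood apart. In vehicle-treated mouse 3, the 2352 genes with an effective length of at least 4000 bases had a median log2 deviation of -0.225 from the mean of the other vehicle-treated mice, and the 3793 genes shorter than 1500 bases one of 0.195. In the other 11 mice these medians lay between -0.100 and 0.110 for long genes and between -0.086 and 0.086 for short genes. Vehicle-treated mouse 5 had far higher Egr1 and Fos, immediate-early genes, than the rest of its group. The 10 genes with the most counts took 44.4% to 46.8% of counts in SK-124-treated mice 1 to 3, 38.6% to 40.2% in mice 4 to 6 and 39.9% to 43.2% in the vehicle group. Calls that leaving out these mice changed are given with and without them.

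**Figure D1:**
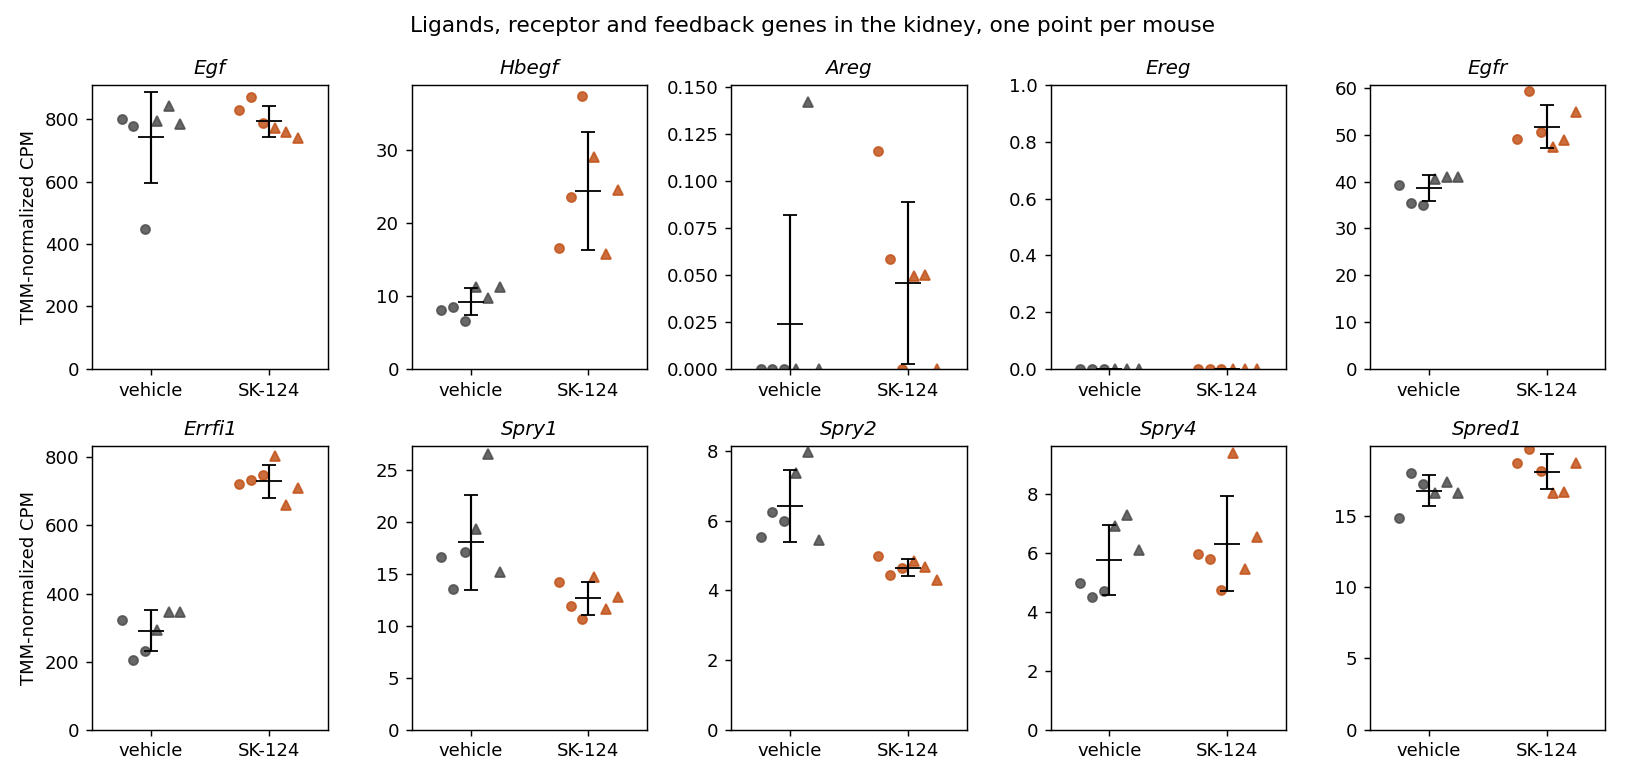
TMM-normalized CPM (vertical axes, each from 0) of the 10 genes in each of 6 vehicle-treated (grey) and 6 SK-124-treated (orange) mice; circles are mice 1 to 3, triangles mice 4 to 6, and black bars the mean ± SD. Hbegf, Egfr and Errfi1 had every SK-124-treated mouse above the vehicle group, Spry2 had every one below it, and vehicle-treated mouse 3 was low for Egf at 446.6 CPM.

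Among the 4 ligand genes, Hbegf alone passed the test. Hbegf (ENSMUSG00000024486.6, chr18:36504927-36515805, minus strand, GENCODE M21, GRCm38) encodes heparin-binding EGF-like growth factor, which binds EGFR and ERBB4. In vehicle-treated mice 1 to 6 its level was 8.10, 8.42, 6.59, 11.2, 9.77 and 11.2 CPM. In SK-124-treated mice 1 to 6 it was 16.6, 23.5, 37.4, 29.0, 15.7 and 24.5 CPM. The groups did not overlap, and the SK-124 group was the more spread. The log2 fold change was 1.41 (SE 0.19, FDR = 2.89e-05, edgeR). It was 1.33 (FDR = 8.59e-05, edgeR) without vehicle-treated mouse 3, 1.49 with SK-124-treated mice 1 to 3 alone and 1.33 with mice 4 to 6 alone. In TPM its vehicle mean was 4.02 ± 1.01 (SD, n = 6).

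Egf (ENSMUSG00000028017.7, chr3:129677565-129755316, minus strand) had levels of 801, 778.5, 446.6, 794.5, 842 and 784.8 CPM in vehicle-treated mice 1 to 6. In SK-124-treated mice 1 to 6 they were 828.3, 872.1, 788.2, 772.3, 757.1 and 739.2 CPM. Apart from vehicle-treated mouse 3, all 11 mice lay between 739.2 and 872.1 CPM and the groups overlapped. The log2 fold change was 0.10 (SE 0.11, FDR = 0.589, edgeR) and, without vehicle-treated mouse 3, -0.01 (FDR = 0.878, edgeR). Antisense transcripts overlap Egf, the most counted of which, 6330410L21Rik, had 12 to 27 counts per mouse beside 8744 or more for Egf.

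RSEM's effective length of Egf was 3573 bases in that mouse, and its group median was 4021.1 bases. The 5 thick ascending limb markers did not move one way in that mouse. Umod, which encodes uromodulin, and Slc12a1, the loop diuretic-sensitive cotransporter, were the lowest of the vehicle group there, at 1592.9 and 565.5 CPM. Cldn16, Cldn10 and Kcnj1 were the highest of the vehicle group there, at 5.72, 144.3 and 145.5 CPM. The sum of the 5, which is mostly Umod and Slc12a1, was 2453.8 CPM in mouse 3. The rest of the vehicle group had 2763.7 to 3399.2 CPM and the SK-124 group 2954.4 to 3602.2 CPM. Between groups 1 of the 5, the tight junction gene Cldn16, was higher with SK-124 (log2 fold change 0.50). Umod (0.21), Cldn10 (-0.13) and Kcnj1 (-0.12) did not pass but were at an unadjusted p under 0.05 by edgeR, in both directions. Slc12a1 was at 0.16 without either. None of the 4 distal convoluted tubule markers passed by edgeR or DESeq2, with 1, Trpm6 (-0.27), at an unadjusted p under 0.05. The ratio of Egf to Slc12a1 in CPM was 1.01 ± 0.137 (SD, n = 6) with vehicle and 0.969 ± 0.0496 (SD, n = 6) with SK-124 (two-sided exact permutation test, p = 0.552). In mouse 3 this ratio was 0.790, the lowest of the vehicle group, whose highest was 1.21. The part of transcript length or segment content in the Egf value of mouse 3 was not tested.

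**Figure D2:**
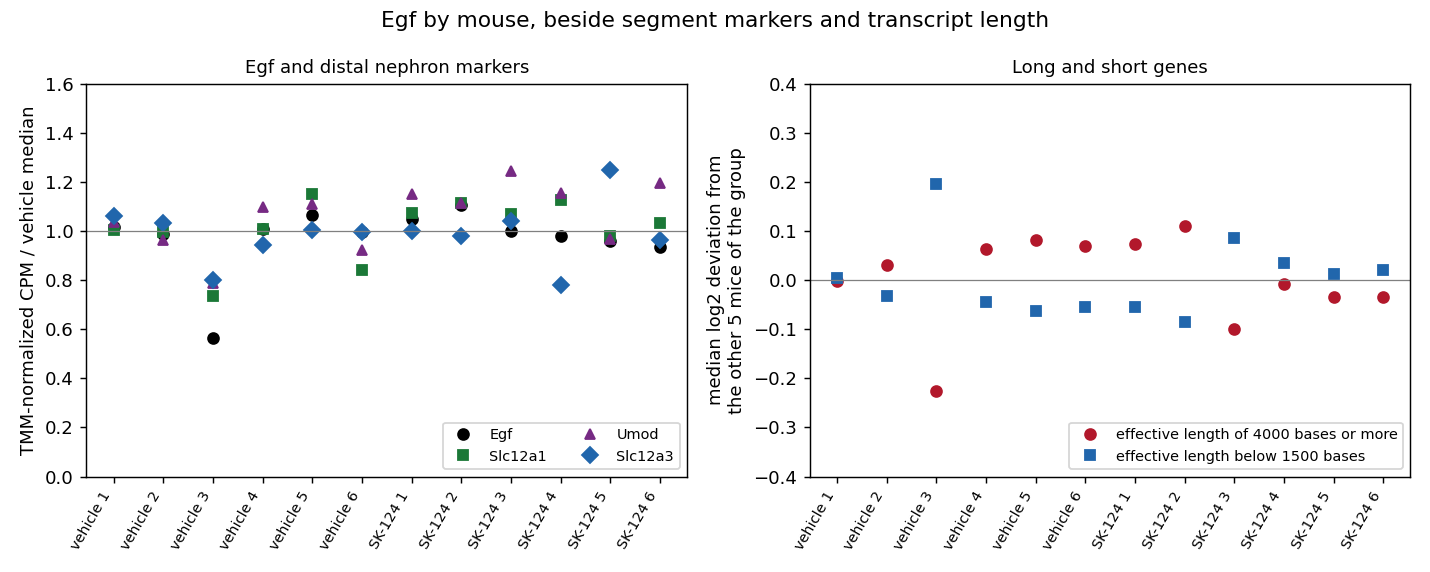
Left, TMM-normalized CPM of Egf, of the thick ascending limb markers Slc12a1 and Umod and of the distal convoluted tubule marker Slc12a3 in each mouse, divided by the gene's vehicle median. Right, median log2 deviation of long genes (red) and short genes (blue) in each mouse from the other 5 mice of its group; vehicle-treated mouse 3 has the lowest Egf and the widest gap between long and short genes, -0.225 against 0.195.

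The 3 genes whose levels followed Egf most closely across the 12 mice, after removal of the group means, were Diaph2 (Pearson's r = 0.991), Cdh1 (r = 0.976) and Pdpr (r = 0.974). Without vehicle-treated mouse 3 the values over 11 mice were 0.928, 0.889 and 0.718. Diaph2, a formin gene, had 3.22 CPM in mouse 3 and 20.01 to 21.58 CPM in the other vehicle-treated mice. These are descriptions, and the points share each library's depth and transcript length profile.

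Areg (ENSMUSG00000029378.5, chr5:91139599-91148432, plus strand), which encodes amphiregulin, had 3 counts in vehicle-treated mouse 5 and 0 in the other 5 mice of the group. With SK-124 the counts were 2, 1, 0, 1, 1 and 0. It failed the expression filter and was not tested by edgeR, and a two-sided exact permutation test on its CPM gave p = 0.47. Ereg (ENSMUSG00000029377.5, chr5:91074622-91093646, plus strand), which encodes epiregulin, had 0 counts in all 12 mice. Neither transcript was detectable well enough at this depth for a comparison of levels.

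The receptor gene Egfr (ENSMUSG00000020122.16, chr11:16752203-16918158, plus strand) had levels of 39.4, 35.4, 35.1, 40.5, 41.0 and 41.0 CPM in vehicle-treated mice 1 to 6. In SK-124-treated mice 1 to 6 they were 49.2, 59.4, 50.5, 47.4, 49.0 and 54.9 CPM. Every SK-124-treated mouse lay above the vehicle group, and the log2 fold change was 0.42 (SE 0.07, FDR = 0.000153, edgeR). Leaving out any 1 mouse moved it only between 0.37 and 0.44.

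The result for Egfr depended on the unit. In TPM the vehicle group ranged from 4.65 to 7.11 and the SK-124 group from 5.54 to 6.79, so the groups overlapped. The log2 fold change from limma on log2(TPM + 1) was 0.04 (FDR = 0.823, limma), and on log2(TPM + 0.1) it was 0.05 (FDR = 0.815, limma). TPM divides by the effective length that RSEM derives from its mix of isoforms, and for Egfr this length was 6110.9 ± 665 bases (SD, n = 6) with vehicle and 7073.8 ± 515.5 bases (SD, n = 6) with SK-124. The mean length was greater with SK-124 (two-sided exact permutation test, p = 0.0238, not adjusted for the number of genes). The groups overlapped, at 5384.7 to 7187.3 bases with vehicle and 6536.3 to 7757.7 bases with SK-124. This length was above the vehicle median in 6 of 6 SK-124-treated mice and above the vehicle maximum in 3 of them. Among the other tested genes of the group, no effective length differed at 0.05, with exact permutation p-values from 0.212 for Spry1 to 0.974 for Egf. Read counts per isoform were not analysed here. On the TPM scale the median of all genes also moved, by -0.102 on log2(TPM + 1).

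**Figure D3:**
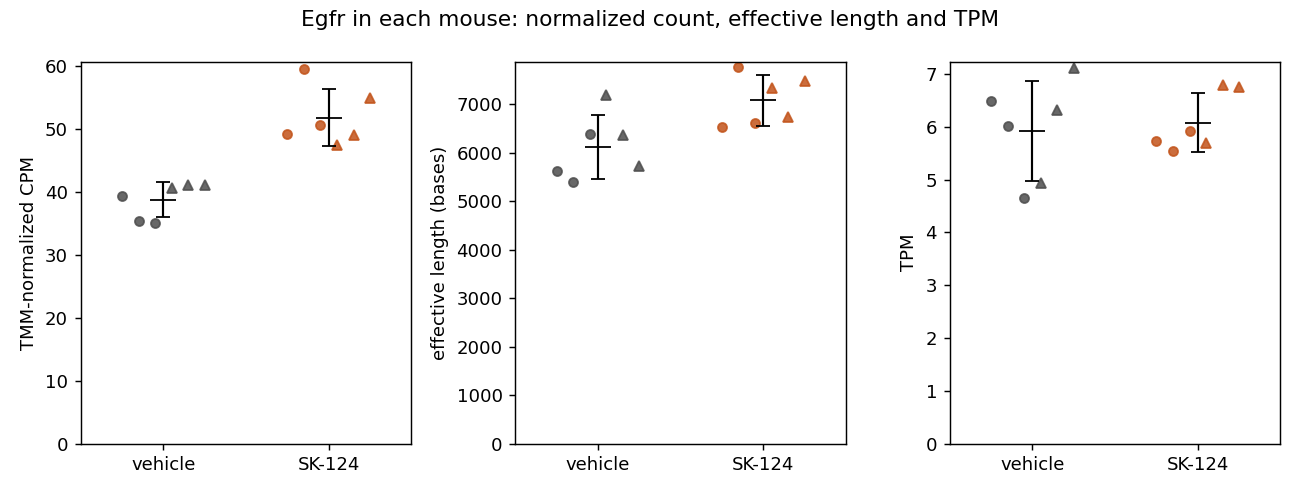
Egfr in each mouse (grey vehicle, orange SK-124; circles mice 1 to 3, triangles mice 4 to 6; black bars mean ± SD) as TMM-normalized CPM, effective length in bases and TPM, all axes from 0. The groups are apart in CPM. The effective length has a greater mean with SK-124 but overlaps between the groups, as does TPM.

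Errfi1 (ENSMUSG00000028967.10, chr4:150853919-150868892, plus strand), the EGFR inhibitor, had levels of 322.9, 203.3, 232.1, 292, 347 and 344.6 CPM in vehicle-treated mice 1 to 6. In SK-124-treated mice 1 to 6 they were 720.5, 732.6, 748.5, 804.2, 659.2 and 711.2 CPM. The groups lay far apart, with a gap wider than either group's range. Its log2 fold change was 1.33 (SE 0.11, FDR = 1.55e-07, edgeR), and it was 1.34 with SK-124-treated mice 1 to 3 alone and 1.33 with mice 4 to 6 alone. Per mouse, the ratio of Errfi1 to Egfr in CPM was 7.44 ± 1.11 (SD, n = 6) with vehicle and 14.2 ± 1.66 (SD, n = 6) with SK-124 (p = 0.00216 by a two-sided exact permutation test, which cannot give a smaller value with 6 against 6 mice). Inhibitor and receptor transcripts therefore did not move by the same factor.

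The 3 genes that followed Errfi1 most closely within the groups across 12 mice were Sgms1 (Pearson's r = 0.880), Stk17b (r = 0.876) and Tead4 (r = 0.860), given as a description. Of these, Sgms1, which encodes a sphingomyelin synthase, was itself higher with SK-124 (log2 fold change 0.48, FDR = 5.01e-06, edgeR), as was Stk17b (log2 fold change 0.46, FDR = 0.0121, edgeR). Tead4 did not pass the test (log2 fold change 0.20, FDR = 0.547, edgeR). In the vehicle-treated mice other than mouse 3, Stk17b was at 2.63 to 4.65 CPM and Tead4 at 0.644 to 1.56 CPM, both low levels.

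Among the Sprouty genes, which encode membrane-associated inhibitors of the path from receptor to ERK, 2 were lower and none was higher with SK-124. Of all genes tested, 13.5% were lower and 10.8% higher. Spry2 (ENSMUSG00000022114.5, chr14:105891947-105896819, minus strand) had levels of 5.53, 6.24, 5.98, 7.36, 7.97 and 5.45 CPM in vehicle-treated mice 1 to 6. In SK-124-treated mice 1 to 6 they were 4.98, 4.44, 4.65, 4.85, 4.66 and 4.31 CPM. The groups did not overlap, although their nearest mice lay close, and the log2 fold change was -0.47 (SE 0.10, FDR = 0.00321, edgeR).

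Spry1 (ENSMUSG00000037211.12, chr3:37639947-37644598, plus strand) had levels of 16.6, 13.5, 17.1, 19.3, 26.5 and 15.2 CPM in vehicle-treated mice 1 to 6. In SK-124-treated mice 1 to 6 they were 14.2, 11.9, 10.6, 14.7, 11.6 and 12.8 CPM. The groups overlapped, since vehicle-treated mouse 2 lay below 2 SK-124-treated mice, and vehicle-treated mouse 5 was the highest of all. The log2 fold change was -0.51 (SE 0.13, FDR = 0.0089, edgeR) and, without vehicle-treated mouse 5, -0.37 (FDR = 0.012, edgeR). With SK-124-treated mice 1 to 3 alone it was -0.56 (FDR = 0.0506, edgeR) and with mice 4 to 6 alone -0.47 (FDR = 0.0895, edgeR), so neither set of 3 passed by itself.

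Spry4 (ENSMUSG00000024427.7, chr18:38586247-38601415, minus strand) ranged from 4.51 to 7.31 CPM with a median of 5.55 in the vehicle group. With SK-124 it ranged from 4.76 to 9.41 CPM with a median of 5.88, and the highest value was that of mouse 4. The groups overlapped, and the log2 fold change of 0.14 (SE 0.16, FDR = 0.579, edgeR) became -0.01 without that mouse.

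Spred1 (ENSMUSG00000027351.14, chr2:117121374-117182279, plus strand) encodes a Sprouty-related protein that brings neurofibromin to the membrane, where it acts on RAS. It ranged from 14.9 to 18.0 CPM with a median of 17.0 in the vehicle group and from 16.6 to 19.7 CPM with a median of 18.4 in the SK-124 group. The groups overlapped and the log2 fold change was 0.11 (SE 0.06, FDR = 0.244, edgeR). The feedback genes thus included 1 that was higher, 2 that were lower and 2 that did not pass.

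On the length-corrected TPM scale, the order of levels in the vehicle group was Egf (mean 172.7), Errfi1 (96.5), Spry1 (7.35), Egfr (5.92), Hbegf (4.02), Spry2 (3.14), Spred1 (2.69), Spry4 (1.17), Areg (0.0233) and Ereg (0). The ranges of neighbours in this order were apart only between Errfi1 and Spry1, between Spred1 and Spry4 and between Spry4 and Areg. With SK-124 the mean TPM of Errfi1 was 217.2 ± 24.3 (SD, n = 6) and that of Egf 164.1 ± 9.64 (SD, n = 6), so the inhibitor transcript had the higher mean there.

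In total 5 of the 8 tested genes passed the test, 3 higher and 2 lower, beside 24.4% of all genes tested, 10.8% higher and 13.5% lower. Without vehicle-treated mouse 3 the count was 5 as well, with log2 fold changes of 1.33 for Hbegf, 0.39 for Egfr, 1.27 for Errfi1, -0.53 for Spry1 and -0.49 for Spry2. It was 4 with either set of 3 SK-124-treated mice, Spry1 being the gene lost. In 4 of the 8 the groups did not overlap, 3 above and 1 below the vehicle group, beside 6.32% and 6.65% of all genes. The median log2 fold change of the 8 was 0.12, and that of all genes tested was -0.005. Because the genes were chosen with earlier results of these data known, setting them beside all genes is a description and no test.

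Other genes of the pathway were taken from lists named by role. For these lists and the marker lists below, counts of calls stand beside 10.8% higher and 13.5% lower among all genes tested. Of 7 other ErbB ligand genes, 4 were tested and 0 passed by edgeR or DESeq2, with 1, Nrg1, at an unadjusted p under 0.05. They were Tgfa (log2 fold change 0.17), Btc (0.20), Nrg4 (0.21) and Nrg1 (0.37), with a median of 0.21. Nrg1, which encodes neuregulin 1, a ligand of ERBB3 and ERBB4, had a vehicle median of 6.12 CPM and an SK-124 median of 8.58 CPM with overlapping groups (FDR = 0.0953, edgeR). It passed without vehicle-treated mouse 3 (log2 fold change 0.48, FDR = 0.0279, edgeR) and without vehicle-treated mouse 2 (0.47, FDR = 0.0376, edgeR). Epgn and Nrg2 were too low to test and Nrg3 was at 0 in every mouse.

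The other ErbB receptors differed in opposite directions. Erbb3, a receptor with little kinase activity that signals through its partners, ranged from 46.2 to 59.4 CPM with vehicle and from 69.9 to 83.6 CPM with SK-124. Its groups did not overlap (log2 fold change 0.52, SE 0.06, FDR = 1.05e-05, edgeR). Erbb2, the partner receptor without a known ligand, ranged from 37.8 to 44.1 CPM with vehicle and from 25.6 to 35.3 CPM with SK-124, again without overlap (log2 fold change -0.43, SE 0.07, FDR = 0.000259, edgeR). Erbb4 had medians of 14.4 and 15.1 CPM and did not pass (0.14, FDR = 0.375, edgeR).

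Of 6 genes of ligand shedding, 2 were lower with SK-124 and none was higher (median -0.09). These were the metalloprotease gene Adam12 (log2 fold change -0.69, FDR = 0.00811, edgeR) and Rhbdf1 (-0.35, FDR = 0.00114, edgeR), an inactive rhomboid that helps traffic the sheddase ADAM17. Adam17 itself had a log2 fold change of -0.10 and did not pass. Rhbdf2 lay in the other direction near the threshold (0.25, FDR = 0.0578, edgeR). It passed as higher without vehicle-treated mouse 6 (0.30, FDR = 0.029, edgeR) and without SK-124-treated mouse 1 (0.29, FDR = 0.0317, edgeR). Adam12 lost its call with SK-124-treated mice 1 to 3 alone (FDR = 0.0854, edgeR) and in the limma fits on TPM (FDR = 0.0527).

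Of 17 genes for receptor adaptors, RAS, RAF, MEK and ERK, 1 passed. It was Nras, a RAS gene, at 17.6 to 19.8 CPM with vehicle and 20.6 to 23.8 CPM with SK-124 (log2 fold change 0.25, SE 0.06, FDR = 0.0032, edgeR). The limma fits on TPM ended that call (FDR = 0.535 and 0.527), as did scaling to library totals alone (0.13, FDR = 0.182, edgeR), and that scaling moved the median change of all genes by -0.113 on the log2 scale. The median of the 17 was 0.02.

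Of 14 other feedback regulators, 4 were higher and 1 lower with SK-124 (median 0.11). Lrig1, a membrane protein that promotes the degradation of ErbB receptors, ranged from 8.73 to 10.95 CPM with vehicle and from 21.0 to 23.6 CPM with SK-124 (log2 fold change 1.16, SE 0.06, FDR = 4.37e-10, edgeR). Ptpn1, a phosphatase that can act on EGFR, ranged from 27.3 to 33.7 and from 48.8 to 55.3 CPM (0.77, SE 0.06, FDR = 5.55e-08, edgeR). Neither gene overlapped between the groups. The ubiquitin ligase gene Cblb was higher (0.73, SE 0.09, FDR = 1.52e-05, edgeR), while Cbl did not pass (0.00, FDR = 0.99, edgeR). Their relative Cblc was higher by edgeR (0.41, SE 0.08, FDR = 0.000703), a call that both limma fits on TPM ended (0.22 and 0.23, FDR = 0.232). Nf1, the neurofibromin gene, lay at the threshold (0.21, FDR = 0.0525, edgeR) and passed by DESeq2 (FDR = 0.0423) and without vehicle-treated mouse 3 (FDR = 0.015, edgeR). Socs5, which encodes another negative regulator of EGFR, was lower at 7.96 to 10.4 CPM beside 11.7 to 16.9 CPM with vehicle (-0.69, SE 0.09, FDR = 1.74e-05, edgeR). The transcripts of these inhibitors thus did not all move one way.

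Of 14 genes whose transcripts ERK signaling is known to induce, 13 were tested, 2 were higher and 3 lower with SK-124 (median -0.14). Ier3, an immediate-early gene, had medians of 20.6 CPM with vehicle and 40.2 CPM with SK-124 without overlap (log2 fold change 1.03, SE 0.15, FDR = 7.85e-05, edgeR). Dusp5, a nuclear ERK phosphatase gene, was higher at a low level (0.62, SE 0.19, FDR = 0.0251, edgeR). Ccnd1, which encodes cyclin D1, ranged from 89.8 to 126.8 CPM with vehicle and from 46.5 to 64.0 CPM with SK-124 (-0.94, SE 0.08, FDR = 3.28e-07, edgeR). The ETS factor gene Etv5 was lower (-0.50, SE 0.13, FDR = 0.00812, edgeR), and Phlda1 was lower by a call (-0.46, FDR = 0.0331, edgeR) that ended without vehicle-treated mouse 4 or 5 or SK-124-treated mouse 1, 2, 5 or 6, with FDR = 0.0506 to 0.0843 by edgeR. Dusp5 lost its call without vehicle-treated mouse 2 or 4 or SK-124-treated mouse 3 or 4, with FDR = 0.0603 to 0.0639 by edgeR. It also lost it with library totals (FDR = 0.0825, edgeR), in the limma fits on TPM (FDR = 0.167 and 0.176) and with SK-124-treated mice 1 to 3 alone (FDR = 0.177, edgeR). The calls of Etv5 (FDR = 0.0841, edgeR, with mice 4 to 6) and Phlda1 (FDR = 0.116 and 0.132, edgeR, with mice 1 to 3 and 4 to 6) did not hold in a set of 3 SK-124-treated mice. Etv1, another ETS factor gene, did not pass with all mice (-0.29, FDR = 0.0815, edgeR) and passed without vehicle-treated mouse 3 (-0.36, FDR = 0.016, edgeR), without SK-124-treated mouse 2 (-0.38, FDR = 0.0135, edgeR) and with library totals (-0.41, FDR = 0.0137, edgeR). Dusp6, the cytoplasmic ERK phosphatase gene, did not pass (-0.16, FDR = 0.374, edgeR).

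Egr1 and Fos turned on 1 mouse. Fos had a vehicle median of 0.726 CPM and 27.1 CPM in vehicle-treated mouse 5, and it ranged from 2.43 to 12.1 CPM with SK-124. Its log2 fold change was 0.13 (SE 0.78, FDR = 0.925, edgeR) with all mice and 2.67 (FDR = 0.000362, edgeR) without that mouse. Egr1 had a vehicle median of 9.47 CPM and 215.4 CPM in the same mouse, and its log2 fold change went from -0.65 (FDR = 0.61, edgeR) to 1.5 (FDR = 0.0314, edgeR). Hbegf, at 9.77 CPM in mouse 5, lay within its group's range, whereas Egf, Egfr, Errfi1, Spry1, Spry2 and Spry4 each had the highest value of the vehicle group there. Fosl1 was below the expression filter, with at most 0.0496 CPM with vehicle and 0.116 to 0.743 CPM with SK-124. Its groups did not overlap, at 0 to 1 counts with vehicle and 2 to 15 with SK-124. With DESeq2 and with no filter on low counts the list of ERK-induced transcripts had 6 calls, the added one being Fosl1.

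**Figure D4:**
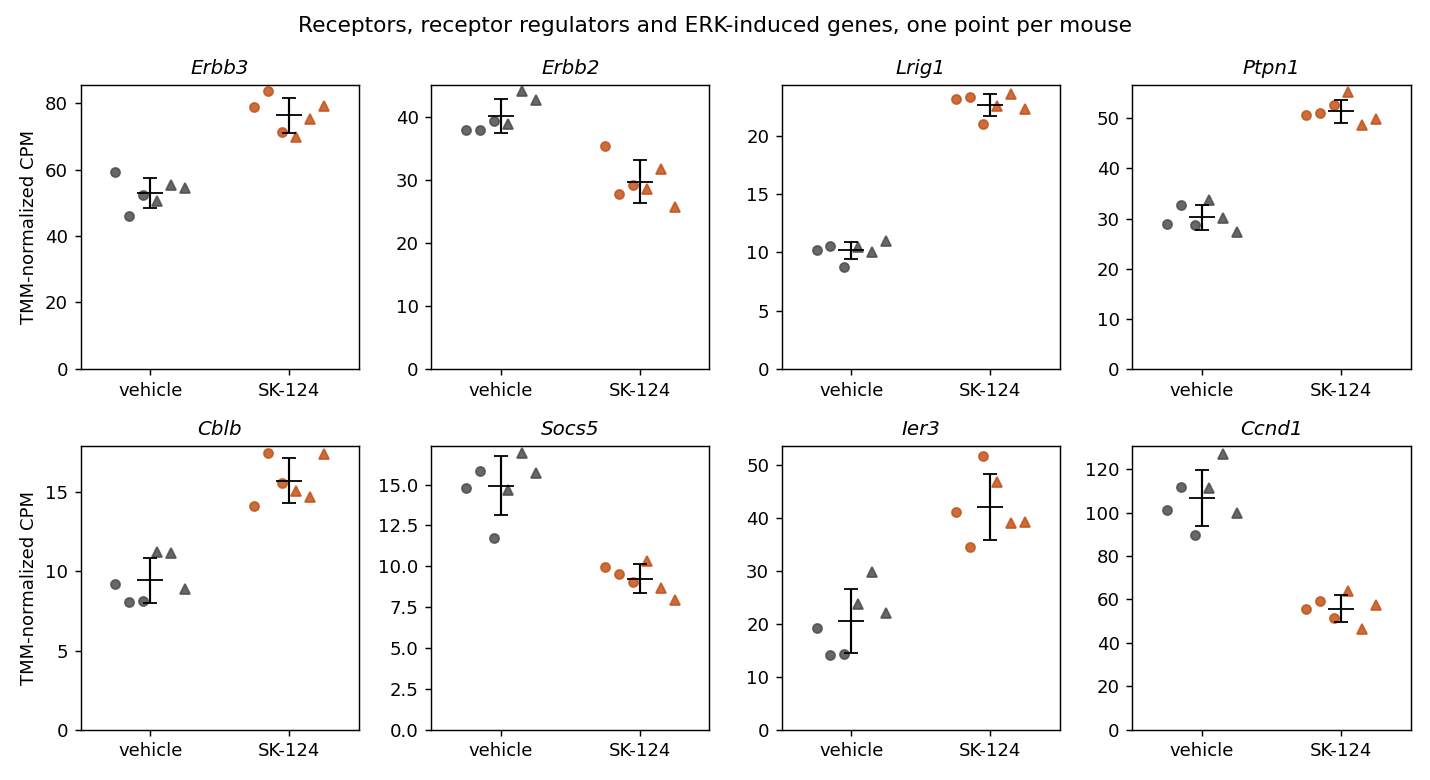
TMM-normalized CPM (axes from 0) in each mouse of ErbB receptors (Erbb3, Erbb2), receptor regulators (Lrig1, Ptpn1, Cblb, Socs5) and ERK-induced genes (Ier3, Ccnd1), with grey vehicle and orange SK-124 points, circles for mice 1 to 3, triangles for mice 4 to 6 and black bars for mean ± SD. None of these 8 genes overlaps between the groups; Erbb3, Lrig1, Ptpn1, Cblb and Ier3 are higher, and Erbb2, Socs5 and Ccnd1 lower, with SK-124.

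Marker genes of kidney cell types were read beside these values. The 5 proximal tubule markers, such as the phosphate transporter gene Slc34a1, had 0 calls by edgeR or DESeq2 and 0 at an unadjusted p under 0.05 (most extreme Slc5a12, 0.09). They summed to 6895.4 to 7823.8 CPM with vehicle and 6442.8 to 8205.1 CPM with SK-124. Of 5 collecting duct markers 1 was higher (Aqp2, log2 fold change 0.75) and 2 were lower (Slc4a1 at -0.59 and Atp6v1b1 at -0.21). Scnn1g (0.14) and Aqp3 (0.11) did not pass. Their sum was 271 to 353.1 CPM with vehicle and 286 to 418.4 CPM with SK-124. Of 5 endothelial markers 2 were lower (Ehd3 at -0.87 and Kdr at -0.85). The other 3 had no call, with Cdh5 at 0.29, Pecam1 at 0.07 and Emcn at -0.24. The sum was 138.7 to 198.2 CPM with vehicle and 109.2 to 189.1 CPM with SK-124. Of 4 stromal markers 1 was lower (Pdgfrb at -0.93). Col1a1 (-0.47) did not pass but was at an unadjusted p under 0.05 by edgeR, and Pdgfra (-0.10) and Dcn (-0.04) did not pass. The stromal sums were 84.9 to 130 CPM with vehicle and 56.8 to 98.9 CPM with SK-124. Of 5 tested macrophage and lymphocyte markers 2 were lower by edgeR, Cd79a at -1.75 and Cd68 at -0.60, and DESeq2 called 3 of the list. Cd79a had few counts, 15 to 33 with vehicle and 2 to 11 with SK-124. By edgeR Adgre1 (-0.62) did not pass, nor did Csf1r (0.18) and C1qa (0.09), which were in the other direction. The sums were 47.8 to 60.2 and 48.8 to 61.3 CPM. The 5 red blood cell markers likewise had 0 calls by either tool and 0 at an unadjusted p under 0.05 (most extreme Alas2, -0.27), with sums of 456.9 to 1256.9 and 547.2 to 784.5 CPM. Adrenal cortex markers were nearly absent, with sums of at most 0.617 and 0.877 CPM Cyp21a1 at 0 in all mice and Star, the 1 tested, at 0.21 without a call. The sums of each marker list given here overlapped between the groups, and the part of these cell types in the results was not tested.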

How the data were processed

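Whole-kidney libraries of 6 vehicle-treated and 6 SK-124-treated mice, grouped by the treatment label, were analysed. Per the labels, libraries were sequenced on a BGISEQ500, and the submitters' processing notes name FastQC, STAR 2.7.2b, RSEM 1.3.0, DESeq2 and mm10. The use of strand and the gene annotation are not given in the sources used here. The authors deposited RSEM tables with expected counts per gene, not normalized, and with TPM, which RSEM scales to effective length and library total. With versions included, 54349 of the 55401 identifiers were found in GENCODE M21 (GRCm38), the source of coordinates.

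Expected counts were rounded, filtered with filterByExpr, normalized with TMM and tested with edgeR 4.0.16 (quasi-likelihood, no replicate block). SE is the absolute log2 fold change over the root of the F statistic. Single values used two-sided exact permutation tests of 6 against 6 mice, on log2(CPM + 0.5) for genes. limma was 3.58.1 and DESeq2 1.42.0 under R 4.3.3. Tables were made in Python 3.11.15 (scipy 1.17.1, pandas 2.3.3, numpy 2.4.6). On simulated counts with 200 changed genes among the 14159, edgeR recovered 97.5% with 2.5% false calls. The simulation gave all genes the same dispersion, had no outlying mouse and held only changes larger than that of Egfr. Its rates therefore do not carry over to the smaller changes called here or to genes with an outlying mouse. No duplicated library was seen (30 pairs, smallest chi-square per degree of freedom 4.69). Totals were 19244227 to 19771802 counts, which limits Areg, Ereg and other genes of few counts.

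The genes and the pathway and marker lists were chosen with earlier results of these data known. All 10 genes are named, and of each pathway list up to 4 genes with the smallest p among those that passed, and every ligand and receptor with a level. Of each marker list the gene with the most extreme log2 fold change is named, and for Egf and Errfi1 the 3 genes of at least 1 CPM with the largest r. Genes named beyond this, among them Adam17, Rhbdf2, Cbl, Cblc, Dusp6, Phlda1, Etv1, Nf1, Braf, Fos, Egr1, Fosl1, Umod, Slc12a1, Cldn10, Kcnj1, Slc34a1, Slc12a3, Slc4a1, Atp6v1b1, Scnn1g, Aqp3, Cyp21a1, Kdr, Cdh5, Pecam1, Emcn, Col1a1, Pdgfra, Dcn, Cd68, Adgre1, Csf1r and C1qa, were picked with values in view. The alternatives tried were a replicate block, robust dispersion, unrounded counts, no filter, a minimum of 10 counts in all mice, RLE, library totals only, DESeq2, limma on log2(TPM + 1) and log2(TPM + 0.1), and each mouse left out; SK-124-treated mice 1 to 3 or 4 to 6 alone were added after seeing the data. Spry3 was not analysed here, 1 marker list and some single genes are not reported here, and a planned comparison of protein sequences was not made.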

Additional observations from a re-analysis of the deposited data

Results flagged for a closer look

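The 10 genes and the tested genes of the pathway lists that are reported here were checked in each group for 1 mouse far from the other 5. Of 128 such values 13 met the criterion. It was a gap to the nearest mouse, as a share of the group's range, above Dixon's critical value for 6. By chance about 6 would, 1 in 20, if the values were independent and normally distributed. Genes of the same mouse share its library, so 13 beside 6 is a description and no test. A mouse with counts beside 5 at 0, as for Areg, always meets the criterion. In vehicle-treated mouse 3, 4 genes were low: Egf at 446.6 CPM, Sos1 at 21.6, Ptpn11 at 33.81 and Cbl at 14.25 CPM. In vehicle-treated mouse 5, 6 genes were high: Areg at 0.1423 CPM (3 counts beside 0 in the rest of the group), Egr1 at 215.4, Fos at 27.08, Dusp6 at 33.3, Myc at 10.15 and Ksr1 at 6.356 CPM. In the SK-124 group, Nrg1 was high at 12.63 CPM and Map2k2 at 78.76 CPM in mouse 5, and Adam17 at 17.37 CPM in mouse 1. The causes of these values were not tested.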

How the results depend on the processing

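Hbegf, Errfi1 and Spry2 kept direction and call in all 24 alternatives, and 5 of the 8 tested genes were called in each fit that left out 1 mouse. Scaling to library totals gave 777 higher and 3058 lower genes, and limma gave 500 higher on log2(TPM + 1) and 498 on log2(TPM + 0.1); the share of higher calls was 20.3%, 19% and 19%, beside 44.5%, and the median change of all genes moved on the log2 scale by -0.113, -0.102 and -0.139. Egf turned to -0.03, -0.05 and -0.05, and Spred1 to -0.01, -0.02 and -0.03. With limma Spry4 turned from 0.14 to -0.01 and -0.02. Egf was -0.01 without vehicle-treated mouse 3 and Spry4 -0.01 without SK-124-treated mouse 4. Under limma Egfr was 0.04 and 0.05 and lost its call; the list of ligand shedding had 1 call and that of receptor adaptors, RAS, RAF, MEK and ERK 0 calls in both limma fits. With SK-124-treated mice 1 to 3 alone, 2298 genes were called, 1233 of them lower, shedding had 1 call, ERK-induced transcripts 3, Spry1 was -0.56 without a call and Spry4 -0.06. With mice 4 to 6 alone, 1267 genes were lower, ERK-induced transcripts had 3 calls and Spry1 was -0.47 without a call. Both of these choices were made after seeing the data and leave fewer mice. The cause of the other changes was not tested.

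Leaving out each mouse gave 2960 to 3942 called genes (1320 to 1863 higher, 1633 to 2079 lower), the top of each range without vehicle-treated mouse 3. Members were called 5 to 5 times, other ligands 0 to 1 (1, Nrg1, without vehicle-treated mouse 2 or 3), other receptors 2 to 2, shedding 2 to 3, adaptors to ERK 1 to 2 (2, with Braf added, without SK-124-treated mouse 1 or 4), feedback regulators 5 to 6 (6 with Nf1 added) and ERK-induced transcripts 3 to 6 (3, without Dusp5 and Phlda1, without vehicle-treated mouse 4). Log2 fold changes ran from -0.01 to 0.14 for Egf, 1.25 to 1.51 for Hbegf, 0.37 to 0.44 for Egfr, 1.24 to 1.39 for Errfi1, -0.59 to -0.37 for Spry1, -0.51 to -0.39 for Spry2, -0.01 to 0.22 for Spry4 and 0.07 to 0.13 for Spred1.

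The replicate numbers belong to different mice: correlations of same-numbered mice ran from -0.131 to 0.217, and 2 of 6 mice correlated best with their own number. With the replicate block 3466 genes were called, 1573 higher and 1893 lower, and 5 members, with Hbegf at 1.36, Egfr at 0.42, Errfi1 at 1.35, Spry1 at -0.50 and Spry2 at -0.46. Low counts limited Areg, which has no adjusted p under most alternatives, and Ereg has no value under any.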
